A study of Homo sapiens with 6 samples.

Results

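The vascular endothelial growth factor (VEGF) system was described here through 9 genes: the ligands VEGFA, VEGFB, VEGFC and PGF, the receptor tyrosine kinases FLT1, KDR and FLT4, and the neuropilin co-receptors NRP1 and NRP2. Every probe set that the platform annotation assigned to exactly 1 of these symbols was taken, which gave 33 of the 54613 probe sets tested, and 9 of 19775 genes. All 9 genes were represented, NRP2 by 11 probe sets, FLT1 by 6, VEGFA and NRP1 by 4 each, FLT4 by 3, PGF by 2, and VEGFB, VEGFC and KDR by 1 each. Each probe set was kept separate, because different probe sets of a gene can read different transcripts.

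The cells were human umbilical vein endothelial cells (HUVECs), primary cells that line the vein of the umbilical cord. One group of 3 arrays came from HUVECs transfected with an siRNA against ANRIL, a long noncoding RNA of chromosome 9p21 listed as CDKN2B-AS1. The other group of 3 arrays came from HUVECs transfected with a scrambled control siRNA, whose sequence is not given in the sources used here. Both groups received the same non-liposomal transfection reagent (TransIT-X2) and grew in an endothelial medium with 2% fetal bovine serum and 0.1% of a VEGF supplement, so every culture was exposed to added ligand. The labels speak of sets of cells and do not say whether these came from separate donors or cultures, so the p-values measure the spread between these samples, which may be technical. A single siRNA duplex was used against ANRIL, and it is shown because it is the only agent that differs between the groups. Both strands are written 5′ to 3′, and the antisense strand was reversed for this from the 3′ to 5′ order of the labels. The capitals in the antisense strand mark its bases 2 to 8, the seed.
siRNA sense strand: ggauaugugccaugaguaagaauaa
siRNA antisense strand: uUAUUCUUacucauggcacauauccau

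VEGF ligands are secreted dimers that bind receptor tyrosine kinases on endothelial cells. VEGF-A acts mainly through KDR (VEGFR-2), the main driver of endothelial proliferation, migration and permeability, while FLT1 (VEGFR-1) binds VEGF-A, VEGF-B and placental growth factor and, in a secreted soluble form, can hold ligand away from KDR. VEGF-C acts on FLT4 (VEGFR-3), best known from lymphatic endothelium. Neuropilins have short cytoplasmic tails without kinase activity and present ligands to these receptors, and they also bind class 3 semaphorins.

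The values are log2 intensities from RMA, and the arrays' medians lay between 6.14 and 6.23. Across probe sets, the correlation of 2 arrays was 0.9971 to 0.9977 within a group and 0.9964 to 0.9974 between groups. Levels of different probe sets are not comparable as amounts of RNA, so each probe set is compared only with itself across arrays, and its percentile of mean signal among all 54613 probe sets says only how bright it was. The probe set of ANRIL lay at percentile 9.39, with 3.69, 4.05 and 4.05 with ANRIL siRNA against 4.08, 4.05 and 3.95 with control siRNA, so it could not show whether the knockdown worked. All 15 endothelial markers were above the median signal of all genes, as the label HUVEC requires, and their mean log2 level was 11.37 to 11.45 on the arrays with ANRIL siRNA against 11.56 to 11.61 with control siRNA. Of these markers 14 of 15 were lower with ANRIL siRNA (median difference −0.19), among them TIE1 and CDH5, and the part of this in the differences given here was not tested. In such bulk samples fewer cells of a type and less RNA per cell cannot be told apart.

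Bright probe sets as a whole were lower with ANRIL siRNA and dim ones higher. The median log2 difference, always ANRIL siRNA minus control siRNA, was −0.08 in the brightest of 10 equal bins of all probe sets (decile 10), −0.07 in decile 9 and 0.06 in decile 4. Below 0 lay 87.1% of probe sets in decile 10 and 79.4% in decile 9. Of the 33 probe sets, 11 lay in deciles 9 and 10 and all 11 were lower, in the direction of the shift there, while in deciles 1 to 7 the median of all probe sets was above 0. The part of this shift in the differences was not tested beyond the values after cyclic loess, a normalization that removes the trend with signal.

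By each gene's brightest probe set, the neuropilins had the largest differences among the 9 genes. NRP2, which presents VEGF-C and binds semaphorin 3F, was 1.35-fold lower with ANRIL siRNA at its brightest probe set, and NRP1, which presents VEGF-A and binds semaphorin 3A, was 1.21-fold lower. The receptors KDR and FLT1 and the ligand VEGFC were lower by about 0.1 on the log2 scale, which is close to the shift shared by probe sets of like brightness. No probe set of the 9 genes passed an adjusted p of 0.05 in limma, 0 of 33 against 0% of all 54613 probe sets, and the smallest adjusted p among the 33 was 0.22. At an unadjusted p under 0.05, limma gave 8 of the 33, all lower, or 24.2%. Of all probe sets 6.14% were lower at that p and 15.1% differed in either direction. All 8 lay above the median signal, while the 6.14% spans every level of brightness, and no share matched by brightness was computed at that p. With an intensity-trended robust prior, limma called 2 of the 33, where 0.63% of all were called: the brightest probe sets of NRP2 (adjusted p = 0.00575) and NRP1 (adjusted p = 0.034). After cyclic loess with that prior it called 1 of the 33, that of NRP2 (limma adjusted p = 0.0264), and 0.143% of all. The probe sets called lie in deciles 9 (NRP2) and 10 (NRP1). The 0.63% and 0.143% span every level of brightness, and no share matched by brightness was computed for these calls.

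Of the 33 probe sets 26 were lower with ANRIL siRNA, or 78.8%, with a median difference of −0.08, while 46.1% of all probe sets were lower and their median difference was 0.01. At 10 of the 33, or 30.3%, the 3 values with ANRIL siRNA all lay below the 3 with control siRNA, against 9.97% of all probe sets, and none of the 33 was higher without overlap, against 11% of all. Bright probe sets in general were lower more often. Averaging the share of each probe set's own decile over the 33 gives 56.2% lower and 15% lower without overlap. After cyclic loess 26 of the 33 were below 0, against 50.1% of all probe sets.

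**Figure D1:**
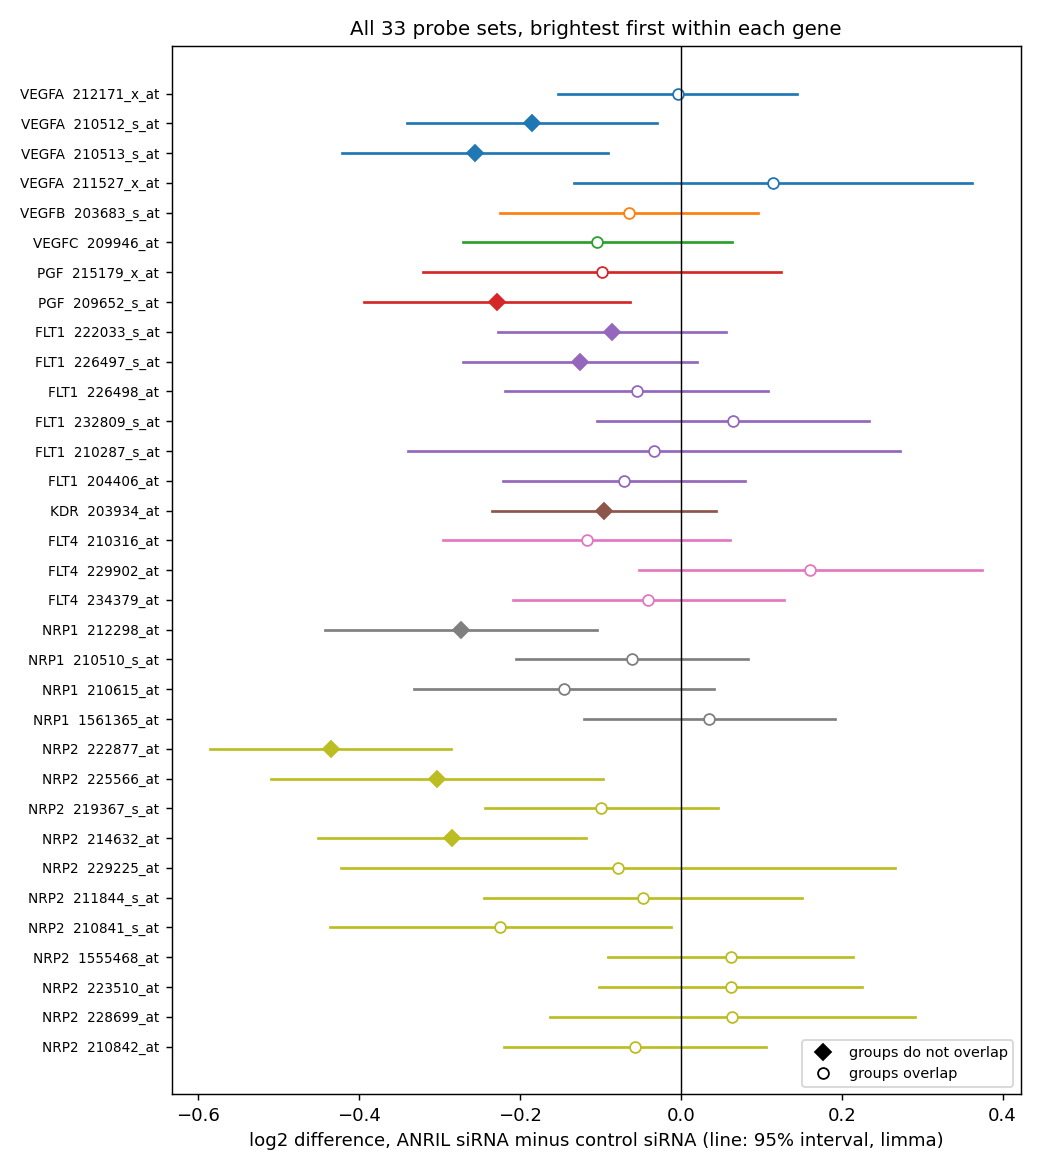
Log2 difference (ANRIL siRNA minus control siRNA, horizontal axis) of each of the 33 probe sets, with lines for the 95% interval of the limma fit and filled diamonds where the 3 values of each group do not overlap. All 10 filled diamonds lie left of 0, and the brightest NRP2 probe set is farthest to the left at −0.44.

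At NRP2 the brightest probe set, 222877_at, read 9.01, 9.02 and 8.99 with ANRIL siRNA against 9.52, 9.44 and 9.37 with control siRNA. The 3 arrays with ANRIL siRNA lay within a narrow band, and all 3 control arrays stood clearly above it. Their means differed by −0.44 ± 0.07 (SE, 3 arrays a group), with a 95% interval of −0.58 to −0.29 and a limma adjusted p of 0.22 over all probe sets. With 1 probe set a gene the adjusted p over 19775 genes was 0.125.

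The next brightest NRP2 probe set, 225566_at, read 8.87, 8.74 and 9.03 with ANRIL siRNA against 9.05, 9.28 and 9.23 with control siRNA. Its groups were separated only narrowly, since ANRIL siRNA replicate 3 lay just below control replicate 1, and the difference was −0.30 ± 0.09 (limma adjusted p = 0.235). The probe set 214632_at, of rank 4 by brightness, read 7.73, 7.62 and 7.61 with ANRIL siRNA against 7.98, 8.02 and 7.83 with control siRNA, without overlap, and differed by −0.28 ± 0.07 (limma adjusted p = 0.22). One more NRP2 probe set reached an unadjusted p under 0.05 although its groups overlapped: 210841_s_at read 7.01, 6.77 and 7.15 with ANRIL siRNA against 7.24, 7.14 and 7.21 with control siRNA, a difference of −0.22 ± 0.10 (limma adjusted p = 0.312).

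The other 7 NRP2 probe sets differed by −0.10 to 0.06 and all had overlapping groups. The 3 with a positive difference were 1555468_at, 223510_at and 228699_at, each at 0.06. In all 8 of 11 NRP2 probe sets were lower, and the mean over the 11 differed by −0.12 ± 0.05 (limma adjusted p = 0.283). The lower values of the brightest probe sets were not shared by every probe set of the gene. Which NRP2 transcripts each one reads is not stated by the annotation, and no isoform is assigned to them here.

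NRP1 was brightest at 212298_at, with 11.32, 11.33 and 11.27 with ANRIL siRNA against 11.60, 11.69 and 11.45 with control siRNA. The groups did not overlap, and the 3 values with ANRIL siRNA were again closer to each other than the 3 control values. The means differed by −0.27 ± 0.08, with a 95% interval of −0.44 to −0.10 and a limma adjusted p of 0.223, or 0.154 over genes.

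The second NRP1 probe set, 210510_s_at, was designed on a sequence record known as soluble NRP1, a secreted form without the membrane anchor. It read 8.36, 8.31 and 8.40 with ANRIL siRNA against 8.36, 8.46 and 8.43 with control siRNA and differed by −0.06 ± 0.06, with overlapping groups. Whether it detects only the soluble form was not analysed here. The gap between the brightest and the second NRP1 probe set within each array was 2.96, 3.01 and 2.87 with ANRIL siRNA against 3.24, 3.23 and 3.02 with control siRNA. The gap was smaller by 0.21 with ANRIL siRNA (two-sided exact permutation p = 0.1, the smallest that 3 against 3 arrays allow, and 0.6 after adjustment over the 6 genes with such a pair). After cyclic loess the same gap differed by −0.17 with an exact permutation p = 0.2. The remaining NRP1 probe sets lay at percentiles 31.9 and 15.9 of mean signal and differed by −0.15 ± 0.08 and 0.04 ± 0.07, with overlapping groups.

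**Figure D2:**
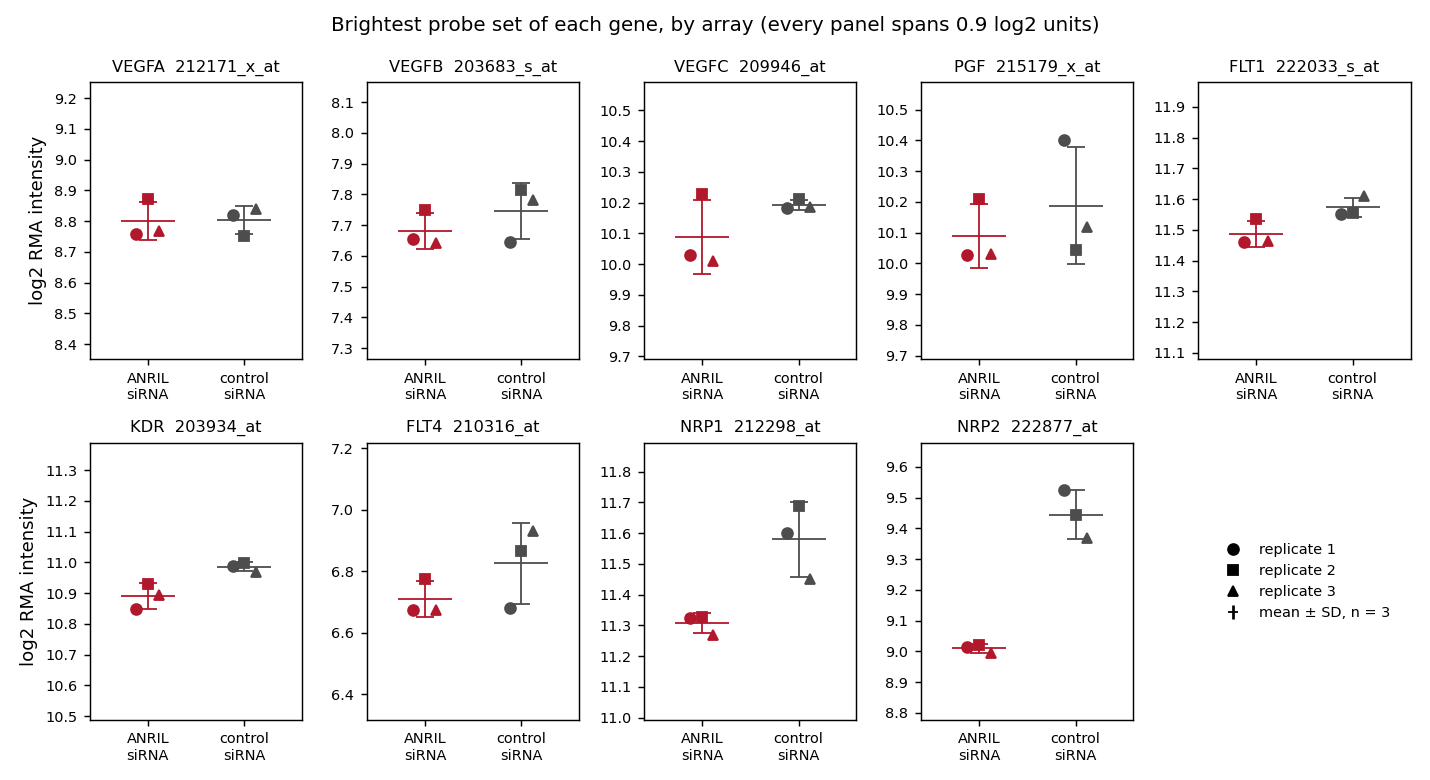
Log2 RMA intensity (vertical axis) of the brightest probe set of each of the 9 genes on each array, with ANRIL siRNA left of control siRNA, symbols for replicate numbers and bars for the mean ± SD (n = 3). NRP2 and NRP1 show the widest gaps, at 9.01 against 9.44 and 11.31 against 11.58, while both groups of VEGFA average 8.80.

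Among the receptor tyrosine kinases, KDR had 1 probe set, 203934_at, with 10.85, 10.93 and 10.89 with ANRIL siRNA against 10.99, 10.999 and 10.97 with control siRNA. The groups did not overlap, and the control values were nearly identical. The difference was nevertheless small, −0.10 ± 0.06 (limma adjusted p = 0.484), and became −0.01 after cyclic loess and 0.00 when the quantile step was repeated. In decile 10, where KDR lies, 34.8% of all probe sets were lower without overlap.

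FLT1 was brightest at 222033_s_at, with 11.46, 11.54 and 11.47 with ANRIL siRNA against 11.55, 11.56 and 11.61 with control siRNA. The groups were separated by a narrow margin and the difference was −0.09 ± 0.06 (limma adjusted p = 0.537), which became −0.00 after cyclic loess. The next, 226497_s_at, read 10.22, 10.29 and 10.17 with ANRIL siRNA against 10.39, 10.35 and 10.32 with control siRNA, again without overlap, and differed by −0.13 ± 0.07 (limma adjusted p = 0.39). Of the 6 FLT1 probe sets 5 were lower, and the range over all 6 was −0.13 to 0.06.

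The soluble form of FLT1 is a decoy for VEGF-A and placental growth factor. The probe set 210287_s_at, designed on a record known as soluble FLT1, read 6.34, 6.37 and 6.24 with ANRIL siRNA against 6.72, 6.07 and 6.27 with control siRNA. The controls spread over more than the whole group with ANRIL siRNA, and the difference was −0.03 ± 0.14 with a 95% interval of −0.34 to 0.27, which leaves the direction unresolved. The probe set 204406_at, designed on the RefSeq record of full-length FLT1, was dim, at percentile 26.4, and differed by −0.07 ± 0.07 with overlapping groups. The arrays therefore resolved no difference for either probe set, and which transcripts they detect was not analysed here.

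The 3 FLT4 probe sets lay at percentiles 33.2 to 59.9 of mean signal. The brightest, 210316_at, read 6.67, 6.78 and 6.68 with ANRIL siRNA against 6.68, 6.86 and 6.93 with control siRNA, with overlapping groups and a difference of −0.12 ± 0.08 (limma adjusted p = 0.505). The second, 229902_at, differed in the other direction by 0.16 ± 0.10, and the third, 234379_at, by −0.04 ± 0.08. The mean over the 3 probe sets differed by 0.00, so no direction can be given for FLT4.

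The probe sets of VEGFA, the main angiogenic ligand, did not move alike. The brightest, 212171_x_at, read 8.76, 8.87 and 8.77 with ANRIL siRNA against 8.82, 8.75 and 8.84 with control siRNA, and the groups overlapped fully, with a difference of −0.00 ± 0.07. The second, 210512_s_at, read 8.40, 8.26 and 8.36 with ANRIL siRNA against 8.45, 8.57 and 8.55 with control siRNA, without overlap, and differed by −0.18 ± 0.07 (limma adjusted p = 0.277).

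The third, 210513_s_at, read 6.51, 6.63 and 6.41 with ANRIL siRNA against 6.74, 6.78 and 6.81 with control siRNA. It too was without overlap, differed by −0.26 ± 0.07 (limma adjusted p = 0.227), and was at −0.30 after cyclic loess. The fourth, 211527_x_at, differed by 0.12 ± 0.11 with overlapping groups. Probe sets whose names end in _x_at hold probes that can also match other transcripts, and the brightest and the dimmest VEGFA probe set are of that kind. The gap between the brightest VEGFA probe set and the next was wider by 0.18 with ANRIL siRNA (two-sided exact permutation p = 0.2, with 0.1 the smallest possible).

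Placental growth factor, encoded by PGF, is a ligand of FLT1 and not of KDR. Its probe set 209652_s_at read 9.12, 9.01 and 9.04 with ANRIL siRNA against 9.17, 9.32 and 9.37 with control siRNA. All control values lay above those with ANRIL siRNA, control replicate 1 only by a little, and the difference was −0.23 ± 0.07 (limma adjusted p = 0.243). The mean over both PGF probe sets differed by −0.16 ± 0.05 (limma adjusted p = 0.188), more than the same mean for NRP2 (−0.12 ± 0.05) or for NRP1 (−0.11 ± 0.05), and the sizes of these differences were not tested against each other. The brighter PGF probe set, 215179_x_at, read 10.03, 10.21 and 10.03 with ANRIL siRNA against 10.40, 10.04 and 10.12 with control siRNA. Its groups overlapped, control replicate 1 stood above all other arrays, and the difference of −0.10 ± 0.10 became 0.01 without that array.

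VEGF-C, the lymphangiogenic ligand of FLT4, was read by 1 probe set, 209946_at, with 10.03, 10.23 and 10.01 with ANRIL siRNA against 10.18, 10.21 and 10.19 with control siRNA. The 3 controls were nearly identical, ANRIL siRNA replicate 2 lay above all of them and the other two below, and the difference was −0.10 ± 0.07 (limma adjusted p = 0.527). VEGF-B, a ligand of FLT1 linked to fatty acid uptake in mouse muscle and heart, was read by 203683_s_at, with 7.65, 7.75 and 7.64 with ANRIL siRNA against 7.64, 7.82 and 7.78 with control siRNA. These groups overlapped, with a difference of −0.06 ± 0.07 (limma adjusted p = 0.694).

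**Figure D3:**
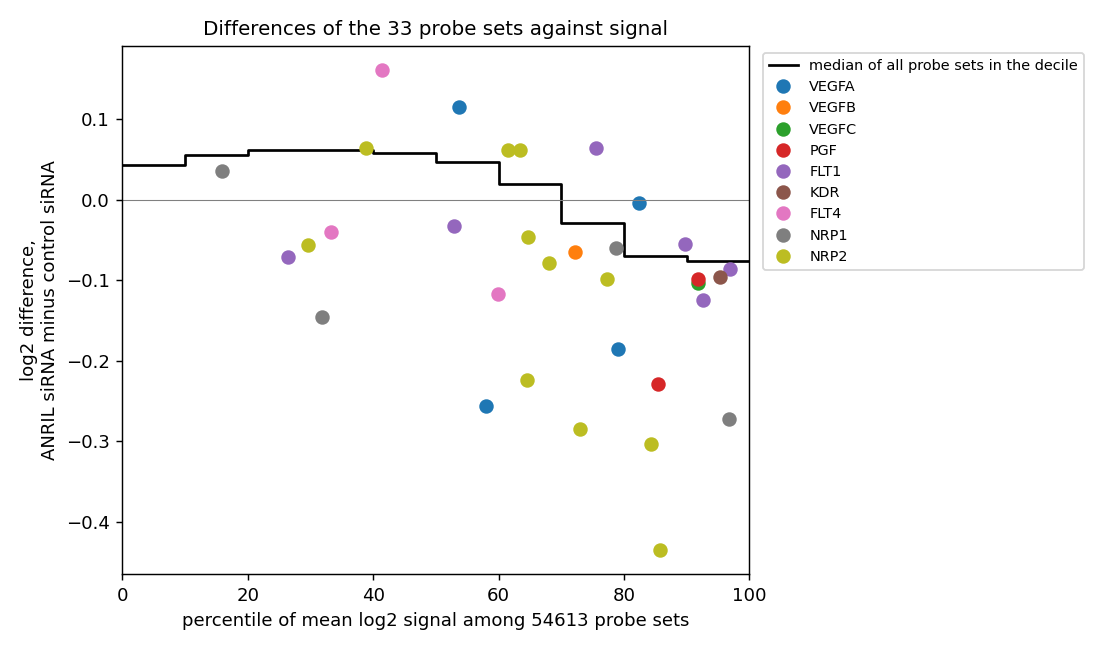
Log2 difference (ANRIL siRNA minus control siRNA, vertical axis) of the 33 probe sets, coloured by gene, against the percentile of mean log2 signal, with a black line for the median of all probe sets in each decile. KDR, VEGFC and the brightest FLT1 and PGF probe sets lie near the line, while the brightest NRP2 and NRP1 probe sets lie well below it, at −0.44 and −0.27 where the decile medians are −0.07 and −0.08.

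Set against their own decile medians, 25 of the 33 probe sets lay below. Without the 11 NRP2 probe sets, 18 of 22 were below 0, where 46.1% of all probe sets were. Of the 22, 7 were lower without overlap, where 9.97% of all were. These shares span all levels of brightness. In deciles 9 and 10, 79.4% and 87.1% of probe sets were below 0, and 25% and 34.8% were lower without overlap. No share matched by decile was computed for the 22. Probe sets of a gene share their RNA and are not independent. The signal at the 3′ end of ACTB exceeded that at the 5′ end by 0.72 ± 0.13 with ANRIL siRNA and 0.54 ± 0.05 with control siRNA (SD, n = 3 each, two-sided exact permutation p = 0.2). The same measure for GAPDH was 0.06 ± 0.03 with ANRIL siRNA and −0.00 ± 0.01 with control siRNA (exact permutation p = 0.1, the smallest possible). These are measures of RNA quality, and their part in the differences was not tested.

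The genes around the receptors were then described by lists, each gene by its brightest probe set, beside a median difference of −0.00 over all 19775 genes, of which 51.3% were lower. No gene of any list passed in limma with the constant prior, as was true of 0% of all genes, while 8.16% of all genes were lower and 9.83% higher at an unadjusted p under 0.05. With the trended prior 2.74% of all genes were called. The lists were brighter than genes at large. Their median percentile of mean signal ran from 55.1 for the PDGF and VEGF relatives to 84.2 for the transcription factors. The part of the shift of bright probe sets in the counts below was not tested beyond the medians after cyclic loess.

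Among 38 measured genes that carry the signal from activated receptors, 31 were lower (median −0.08), with 7 lower and 2 higher at an unadjusted p under 0.05. HSPB1, the small heat shock protein phosphorylated downstream of KDR and p38, read 12.43, 12.55 and 12.38 with ANRIL siRNA against 12.73, 12.70 and 12.73 with control siRNA. Its groups did not overlap, the difference was −0.26 ± 0.06 (limma adjusted p = 0.147), and it was the 1 gene of the list called with the trended prior (adjusted p = 0.00137). NOS3, the endothelial nitric oxide synthase, differed by −0.23 ± 0.08, the calcineurin-regulated factor NFATC2 by −0.22 ± 0.07 and the kinase MAP2K2 by −0.21 ± 0.07. After cyclic loess this list's median was −0.01, that of the list of receptor trafficking −0.00, of VEGF-induced genes −0.01, of transcription factors −0.04, of neuropilin partners −0.04 and of the PDGF and VEGF relatives 0.05.

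Of 28 genes that traffic, dephosphorylate or hold the receptors, 25 were lower (median −0.08), with 7 lower and 1 higher at an unadjusted p under 0.05. CDH5, the VE-cadherin of endothelial junctions that associates with KDR, read 12.20, 12.34 and 12.21 with ANRIL siRNA against 12.56, 12.59 and 12.44 with control siRNA. The groups did not overlap and the difference was −0.28 ± 0.07 (limma adjusted p = 0.154). The recycling GTPase RAB4A differed by −0.23 ± 0.06, the endocytic adaptor DAB2 by −0.21 ± 0.06 and the endothelial phosphatase PTPRB (VE-PTP) by −0.22 ± 0.07. These 4 genes were the ones called in that list with the trended prior, and CDH5 alone of them after cyclic loess with that prior (limma adjusted p = 0.0212), where 0.678% of all genes were called.

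Of 37 genes known to be induced by VEGF-A, 24 were lower (median −0.07), with 8 lower and 3 higher at an unadjusted p under 0.05. This list holds KDR and FLT1 too. PLAU, the urokinase protease, read 9.12, 9.05 and 9.05 with ANRIL siRNA against 9.36, 9.46 and 9.36 with control siRNA, without overlap, and differed by −0.32 ± 0.06 (limma adjusted p = 0.129). Its receptor gene PLAUR differed by −0.23 ± 0.07 and the early response gene IER3 by −0.27 ± 0.06. FOSB, an early response transcription factor at percentile 44.2 of all genes, was higher without overlap, by 0.19 ± 0.06 (limma adjusted p = 0.176). After cyclic loess with the trended prior FOSB was at 0.16 and was not called (limma adjusted p = 0.313). Of the 37 genes 13 were higher, so the induced genes did not share 1 direction. With the trended prior 4 genes of the list were called, all lower. After cyclic loess with that prior 4 were called, PLAU and IER3 lower and, named after their values were seen, the chemokine gene CXCL8 (0.16, limma adjusted p = 0.0399) and the cyclooxygenase gene PTGS2 (0.15, limma adjusted p = 0.0442) higher, where the deposited values gave 0.08 and 0.07.

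Of 29 transcription factors known to act on the ligand or receptor genes, 25 were lower (median −0.10), with 5 lower and 0 higher at an unadjusted p under 0.05 in limma, and 4 called lower and none higher with the trended prior. SOX7, a SOXF factor of endothelium, read 11.33, 11.32 and 11.27 with ANRIL siRNA against 11.65, 11.69 and 11.56 with control siRNA. The groups did not overlap and the difference was −0.33 ± 0.06 (limma adjusted p = 0.129). ETS1 differed by −0.28 ± 0.07 and FLI1 by −0.22 ± 0.06, both factors of the ETS family, and the Notch effector RBPJ differed by −0.22 ± 0.07. These 4 were the genes called with the trended prior, and SOX7 alone was called after cyclic loess with that prior (adjusted p = 0.00731).

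Of 20 semaphorins, plexins and other partners of neuropilins, 16 were lower (median −0.08), with 4 lower and 0 higher at an unadjusted p under 0.05, and none was called by limma with the trended prior. These 4 were TGFB1 at −0.20 ± 0.07, the integrin gene ITGB3 at −0.21 ± 0.07, the endothelial semaphorin SEMA3G at −0.19 ± 0.08 and the receptor gene MET at −0.17 ± 0.07. Of 9 relatives among the PDGF and VEGF families 5 were lower (median −0.02). KIT, the receptor of stem cell factor, read 7.65, 7.34 and 7.002 with ANRIL siRNA against 7.78, 8.24 and 7.74 with control siRNA, without overlap but with a wide spread, and differed by −0.59 ± 0.16 (limma adjusted p = 0.158). CSF1R differed by 0.12 ± 0.07, FLT3 by 0.12 ± 0.07 and PDGFRA by −0.09 ± 0.08, all dim and with overlapping groups.

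**Figure D4:**
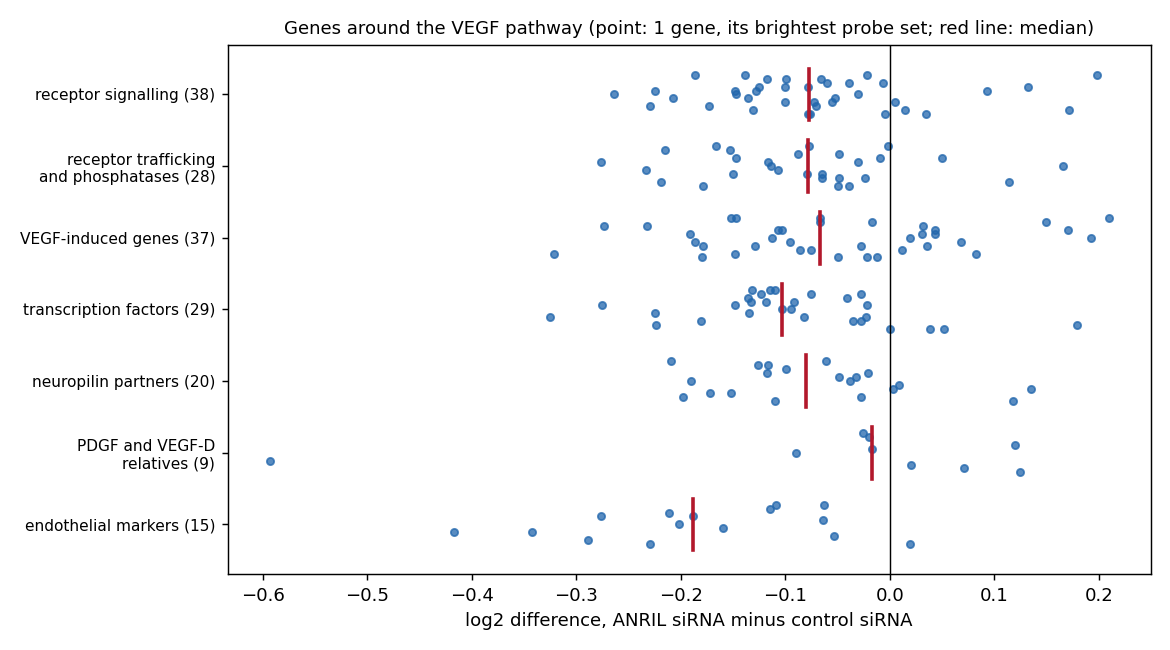
Log2 difference (ANRIL siRNA minus control siRNA, horizontal axis) of each measured gene in 6 lists around the VEGF pathway and of 15 endothelial markers, 1 point a gene at its brightest probe set, with a red line at each list's median. The medians of the 6 lists lie between −0.10 and −0.02, that of the endothelial markers at −0.19, and KIT is the leftmost point at −0.59.

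Of the 15 endothelial markers 8 were called lower with the trended prior, and 5 were called after cyclic loess with that prior. Of all genes 2.74% and 0.678% were called. The markers' median after cyclic loess was −0.11. TIE1 differed by −0.42 ± 0.06, CLDN5 by −0.34 ± 0.06 and ICAM2 by −0.29 ± 0.06, beside −0.44 for NRP2 and −0.27 for NRP1. CD34 was higher, by 0.02. Markers of other cells were mostly dim. Of 6 leukocyte markers 5 were higher (median 0.19), with a mean log2 level of 5.80 to 5.98 with ANRIL siRNA against 5.73 to 5.80 with control siRNA, and PTPRC, the defining one, was at percentile 7.9 of all genes. Fibroblast markers had a median of −0.05, smooth muscle markers of 0.03, epithelial markers of −0.02 and lymphatic endothelial markers of 0.03. These medians hide bright genes that were lower without overlap. They were ACTA2 (−0.26 ± 0.06) and TAGLN (−0.22 ± 0.07) of smooth muscle, where 4 of 7 were higher. KRT18 (−0.20 ± 0.06) and KRT19 (−0.23 ± 0.07) were the epithelial ones, where 2 of 6 were higher, ESRP1 by 0.30 ± 0.08. Of the 6 lymphatic markers 2 were lower, LYVE1 by −0.43 ± 0.07 and PROX1, the defining factor of lymphatic endothelium, by −0.14 ± 0.07 at percentile 41.4. The other 4 were higher, TFF3 by 0.12 without overlap, PDPN by 0.09, CCL21 by 0.04 and RELN by 0.02. The part of other cells in the differences of the VEGF genes was not tested.

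Across the 6 arrays, the genes whose pattern was most like that of the brightest NRP2 probe set included NBPF3 (r = 0.998), the annexin pseudogene ANXA2P1 (0.996), the scaffold gene MPDZ (0.996) and UFM1 (0.994). They were taken from 9880 genes above the median signal, of which 151, or 1.53%, had an r of 0.95 or more. These 4 were lower with ANRIL siRNA, by −0.17 to −0.34, and the 6 points of each share the split into both groups.

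Upstream sequences were at hand for 6 of the 9 genes. The 250 bases before the start of NRP2, the gene with the largest difference at its brightest probe set, are shown beside those of the receptor genes KDR and FLT1, which differed little, because ETS1 and FLI1 bind the core motif GGAA. The windows are chr2:205682251-205682500 on the plus strand for NRP2, chr4:55125596-55125845 on the minus strand for KDR and chr13:28495129-28495378 on the minus strand for FLT1, from RefSeq on GRCh38.p14. They are written 5′ to 3′ on the strand of the gene and end at the base before its start, and capitals mark GGAA on either strand.
NRP2: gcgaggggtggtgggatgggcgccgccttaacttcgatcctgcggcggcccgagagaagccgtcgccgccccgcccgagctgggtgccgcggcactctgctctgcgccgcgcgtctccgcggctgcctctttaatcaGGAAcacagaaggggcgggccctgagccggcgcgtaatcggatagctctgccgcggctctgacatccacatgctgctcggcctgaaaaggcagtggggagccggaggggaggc
KDR: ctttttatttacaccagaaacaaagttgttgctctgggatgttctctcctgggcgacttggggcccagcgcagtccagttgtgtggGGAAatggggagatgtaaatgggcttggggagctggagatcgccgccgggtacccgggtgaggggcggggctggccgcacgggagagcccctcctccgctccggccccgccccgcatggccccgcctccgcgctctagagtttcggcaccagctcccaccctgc
FLT1: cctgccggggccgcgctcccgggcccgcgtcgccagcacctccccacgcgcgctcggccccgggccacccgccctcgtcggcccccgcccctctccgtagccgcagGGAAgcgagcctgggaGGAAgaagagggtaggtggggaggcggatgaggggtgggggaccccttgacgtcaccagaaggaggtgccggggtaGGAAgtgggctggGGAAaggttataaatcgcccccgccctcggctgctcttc

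The NRP2 window held 1 GGAA, that of KDR 1 and that of FLT1 4. Those of VEGFB and VEGFC held 1 and 2, and the 2 windows of PGF held 3 and 2, while 92.7% of all 35116 windows of this length held at least 1, with a median of 3. The SP1 motif GGGCGG, on either strand, occurred 3 times in NRP2, 2 times in KDR and 3 times in FLT1, and in 42.6% of all windows. None of these 3 windows held the SOX core ACAAT or the hypoxia core ACGTG on either strand, which 24.6% and 18.5% of all windows did. These matches describe letters in a window and say nothing of binding.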

How the data were processed

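Total RNA of 6 HUVEC samples was measured on Affymetrix Human Genome U133 Plus 2.0 arrays. The deposited log2 values were made by the authors with RMA and the affy package, with limma named for testing, per the submitters' processing notes; no version or genome build is given in the sources used here. Of 54675 probe sets, 62 controls were left out. The platform annotation gave 1 gene symbol to 41091 of the rest, several to 1801 and none to 11721, and Entrez identifiers brought 41037 of them to current symbols of the RefSeq table for GRCh38.p14.

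Differences were fitted over all probe sets by limma 3.58.1 (R 4.3.3; lmFit, then eBayes with its default constant prior), with Benjamini-Hochberg adjustment at 0.05, two-sided. Gene-level fits used the probe set of highest mean. The 9 genes, the lists and the tests were chosen with earlier results of these data known. Named were each gene's brightest probe set, others with an unadjusted p under 0.05 or no overlap, up to 4 list genes of smallest p, and the 5 genes most like NRP2, of which 1 is not reported here. On simulated data with 54613 probe sets the fit recovered 64% of 1.5-fold and 91% of 2-fold changes, with 3 false calls. Both sizes exceeded the largest difference among the probe sets of the 9 genes, 1.35-fold at the brightest NRP2 probe set. Recovery at that size or smaller was not tested, so these shares do not give the power for the differences found in the 9 genes. Precision is limited by 3 arrays per group. Alternatives were another prior, array weights, other normalizations, a signal filter, a replicate block, other gene rules and each array left out.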

Additional observations from a re-analysis of the deposited data

How the results depend on the processing

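The count of VEGF probe sets called stayed at 0 of 33 with array weights, repeated quantile normalization, median centring and cyclic loess alone, and with any array left out (0 to 0), and was 0 of 26 with the signal filter. It was 2 with the intensity-trended robust prior and 1 after cyclic loess with that prior, where NRP2 alone was called (−0.37, adjusted p = 0.0264). Over all probe sets these priors called 344 and 78, median centring 4 and the signal filter 1, against 0 with the constant prior. Of the 9 genes, 2 were called with the trended prior and 1 each after cyclic loess with that prior, median centring and the signal filter. The last tests fewer genes. The number of probe sets without overlap, 10 of 33, was 8 after repeated quantile normalization, 9 after cyclic loess, 16 after median centring and 11 to 17 with an array left out, where fewer values must be separated. The number below 0 ranged from 23 to 25 with an array left out. NRP2 stayed between −0.47 and −0.40 and NRP1 between −0.34 and −0.22 with an array left out. The brightest NRP1 probe set moved to −0.19 after cyclic loess, with a limma adjusted p of 0.118 under the trended prior. After repeated quantile normalization it was at −0.18. Beside it, VEGFA 210513_s_at was at −0.30 and NRP2 214632_at at −0.27 after cyclic loess.

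The brightest VEGFA probe set turned to 0.0609 after repeated quantile normalization, to 0.0528 after cyclic loess with either prior, and lay between −0.0395 and 0.0168 with an array left out. FLT1 and KDR turned to 0.00844 and 0.00209 after repeated quantile normalization, and PGF, between −0.171 and 0.00902 with an array left out, was above 0 without control replicate 1. The cause was not tested. Samples of the same replicate number showed no clear pairing in their deviations (r = 0.06, 0.14 and −0.04, against −0.18 to 0.14 for unlike numbers). So few arrays cannot decide whether the numbers pair the samples. With the replicate block 0 of 33 probe sets and 0 over all were called by limma.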
